A study of Bos taurus with 18 samples.

Results

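The miR-26 family is made up here of bta-miR-26a and bta-miR-26b, the 2 bovine entries of that name among the 966 names listed for papillae of the cow rumen, the fermentation chamber of the bovine stomach. The members were taken by name, in a choice made with earlier results of these data known. Small RNA was sequenced from 9 Holstein cows that carried a rumen cannula and gave no milk, and all 18 libraries came from papillae. HG_PHY (4 libraries) were cows given the supplement labelled PHY and sampled on a high-grain diet with 65% concentrate, and HG_CON (5 libraries) were control cows on that diet. FD_PHY (4 libraries) and FD_CON (5 libraries) were cows of the same arms on the forage-only diet that came before it. The sources used here give neither the meaning of PHY nor whether it was already fed when FD_PHY was sampled. Because grain followed forage in every cow, diet and time cannot be told apart.

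miRNAs are short RNAs that lower the output of messenger RNAs matching their seed, the stretch near the front of the miRNA. In human and mouse cells, miR-26a and miR-26b share their seed and are known to restrain growth, for example by acting on EZH2, a histone methyltransferase, and on cyclins of the step from G1 to S phase. Their genes lie inside genes of the CTDSP family, which encode phosphatases that act on the tail of RNA polymerase II.

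In the RefSeq gene table (ARS-UCD2.0), the bovine genes keep that arrangement. MIR26B lay within CTDSP1 on chromosome 2, MIR26A-2 within CTDSP2 on chromosome 5 and MIR26A-1 within CTDSPL on chromosome 22, where MIR26C occupies the same stretch as MIR26A-1. The library files place miR-26b at 107133408 to 107133429 on the plus strand of chromosome 2. They list miR-26a at a single place, 55977936 to 55977957 on the plus strand of chromosome 5. The sources used here do not name the build of these positions, and neither position fell within the RefSeq gene of the same name, although the chromosomes matched. Both MIR26A genes are known to give the same mature miR-26a, so its reads from chromosome 5 and chromosome 22 stand under 1 name.

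Libraries held between 5.74 and 15.2 M (mega-reads) of miRNA reads, out of 19.5 to 42.7 M reads in all. The raw reads behind the members ran from 260632 to 923632 for miR-26a and from 50529 to 247225 for miR-26b, so counting error was small beside the spread between libraries. FD_CON 2 stood apart. It had the most miRNA reads, the lowest TMM scaling factor (0.815) and a summed level of 4 muscle miRNAs (miR-143, miR-145, miR-1 and miR-133a) of 297899 CPM, against 102603 to 166117 CPM in the other 17 libraries. The results of the members that rest on it are given with and without it. Levels are CPM, read counts brought to a common library size by TMM scaling, which sets that size from the bulk of the miRNAs. Of the stratified-epithelium list, 6 of 7 entries were measured, led by miR-205 at 28643 CPM on average. For miR-203, no entry of that name was found among the names listed.

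miR-26a was the 4th most abundant of the 468 miRNAs tested and miR-26b the 19th. miR-26a averaged 47389 ± 8832 CPM and miR-26b 10142 ± 2652 CPM (SD, n = 18 each). The pair made up 5.72% ± 0.86 of the miRNA reads (SD, n = 18), of which 4.72% ± 0.70 were miR-26a and 1.0% ± 0.18 miR-26b. In the order of mean levels, miR-26a stood between miR-24-3p (61896 ± 7697 CPM) and miR-27b (46212 ± 4601 CPM), both miRNAs of the miR-23, miR-27 and miR-24 clusters. The mean of miR-27b lay within 1 SD of that of miR-26a, and that of miR-24-3p did not. miR-26b stood between miR-126-3p, an endothelial miRNA (11259.5 ± 1243 CPM), and miR-451, an erythroid miRNA (9050 ± 3314 CPM), and each of those means lay within 1 SD of the mean of miR-26b. Of the next neighbours, miR-143 was at 133130 ± 42952 CPM and let-7a-5p at 40690.5 ± 9221 CPM around miR-26a, and let-7b at 11417 ± 2650 CPM and miR-200a at 8926 ± 1473 CPM around miR-26b.

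miR-26a, the more abundant member, stood at 40151, 46945, 46078.5 and 42827 CPM in the HG_PHY libraries 1 to 4. In HG_CON 1 to 5 it stood at 41256, 58371, 54158, 48613 and 42341 CPM. FD_PHY 1 to 4 had 38784, 43028, 43762 and 49589.7 CPM. FD_CON 1 to 5 had 45382, 74504, 47223.5, 53894 and 36101 CPM. All 4 groups overlapped, and FD_CON held both the highest and the lowest library of the study.

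For miR-26b, HG_PHY 1 to 4 had 8031, 9816, 10617 and 8727 CPM. HG_CON 1 to 5 had 7998, 11217, 9623, 10755 and 9153.5 CPM. FD_PHY 1 to 4 had 8781, 8785, 9285 and 11233.5 CPM. FD_CON 1 to 5 had 9616, 19942, 9529, 10888 and 8559 CPM. With FD_CON 2 set aside, the remaining 17 libraries lay between 7998 and 11233.5 CPM, and the groups overlapped throughout.

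**Figure D1:**
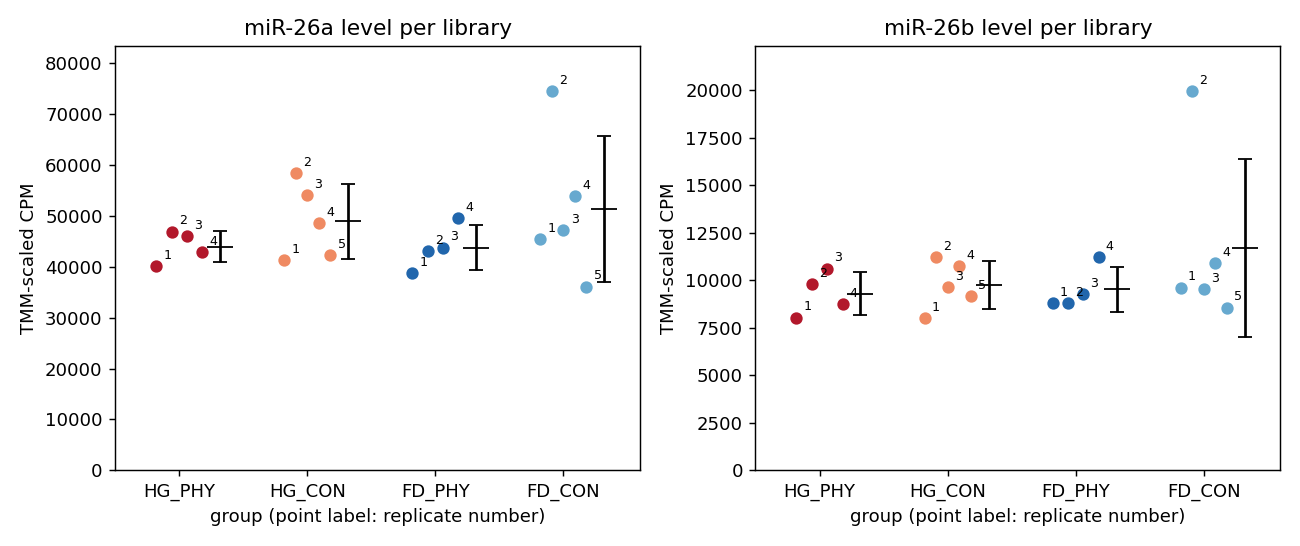
Level of miR-26a (left) and miR-26b (right) in TMM-scaled CPM (y axis) for each library by group (x axis); points are libraries with their replicate number, bars are the mean ± SD. FD_CON 2 lies at 74504 CPM for miR-26a and 19942 CPM for miR-26b, above every other library in both panels.

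As group means, miR-26a stood at 44000.4 ± 3119 CPM in HG_PHY, 48947.5 ± 7397 CPM in HG_CON, 43791 ± 4445 CPM in FD_PHY and 51421 ± 14385 CPM in FD_CON (SD, n = 4, 5, 4 and 5). The order from high to low was FD_CON, HG_CON, HG_PHY and FD_PHY, and each neighbouring pair in it differed by less than 1 SD of either group, except HG_CON and HG_PHY, whose difference was larger than the SD of HG_PHY but not that of HG_CON. For miR-26b the means were 9298 ± 1146 CPM in HG_PHY, 9749 ± 1285 CPM in HG_CON, 9521 ± 1166 CPM in FD_PHY and 11707 ± 4678 CPM in FD_CON. Only FD_CON stood off from the rest, and without FD_CON 2 its mean was 9648 ± 956 CPM (n = 4), between those of HG_CON and FD_PHY. The mean of miR-26a in FD_CON without that library was 45650 ± 7341 CPM.

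The main comparison asked whether grain feeding changed the family in both arms together. Neither member passed. miR-26a averaged 46749 ± 6149 CPM on grain and 48029.8 ± 11272 CPM on forage (SD, n = 9 each), a log2 fold change of -0.03 ± 0.11 (SE) with a 95% interval from -0.27 to 0.20 and an adjusted p of 0.921 by edgeR. Of the 9 grain libraries, 6 had less miR-26a than the forage mean. miR-26b averaged 9549 ± 1172 CPM on grain and 10735 ± 3574 CPM on forage, a log2 fold change of -0.15 ± 0.14 with an interval from -0.43 to 0.13 (edgeR adjusted p = 0.723), and 7 of 9 grain libraries had less of it than the forage mean. In fold terms these intervals allow a level on grain of 0.830 to 1.15 times that on forage for miR-26a and of 0.741 to 1.10 times for miR-26b. FD_CON 2 raised the forage means behind the counts of 6 and 7 of 9. The medians were slightly higher on grain than on forage, at 46078.5 against 45382 CPM for miR-26a. For miR-26b they were 9623 against 9529 CPM. Of all 468 miRNAs tested, 1 passed in edgeR (0.214%), so 0 of 2 members is near the background. DESeq2 called 12, neither member among them, and edgeR called 0 to 3 with 1 library left out. At an unadjusted p under 0.05, edgeR had 50 miRNAs (10.7%), neither member among them.

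Both values were closer to 0, or past it, without FD_CON 2. The log2 fold change of miR-26b on grain was then -0.03 ± 0.09 and that of miR-26a 0.03 ± 0.09 (edgeR adjusted p = 0.915 for both). The sign of miR-26a also turned when libraries were scaled by total counts alone (0.08), a scaling that moved the median log2 change of all 468 miRNAs to 0.09, against -0.01 with TMM. No direction is therefore given for miR-26a. These are bulk samples, so fewer cells of a type and less RNA per cell cannot be told apart. The 4 muscle miRNAs named above, mostly miR-143 by level, summed to 102603 to 133026 CPM in the grain libraries and to 129264 to 297899 CPM in the forage libraries. miR-133b, also on that list, was too low to test and at 0 in 6 of 18 libraries. The part of the muscle miRNAs in the values of miR-26a and miR-26b was not tested.

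Within control cows, miR-26b had a log2 fold change of -0.26 ± 0.18 between HG_CON and FD_CON (interval -0.64 to 0.11, edgeR adjusted p = 0.744). All 5 HG_CON libraries lay below the FD_CON mean, but only 1 lay below every FD_CON library, and without FD_CON 2 the change was -0.03 ± 0.12. miR-26a had a change of -0.07 ± 0.15 there (interval -0.39 to 0.24, edgeR adjusted p = 0.953). It was at 0.05 without FD_CON 2. Within supplemented cows, HG_PHY and FD_PHY differed by 0.01 ± 0.17 for miR-26a (interval -0.35 to 0.36, edgeR adjusted p = 0.993) and by -0.03 ± 0.20 for miR-26b (interval -0.46 to 0.39, edgeR adjusted p = 0.988). For both members 2 of 4 HG_PHY libraries lay above and 2 below the FD_PHY mean. edgeR called 0 of 468 miRNAs in either arm (0%), with 50 (10.7%) in control cows and 33 (7.05%) in supplemented cows at an unadjusted p under 0.05. Both counts were 0 in DESeq2 as well. The diet by supplement interaction was 0.08 ± 0.23 for miR-26a and 0.23 ± 0.27 for miR-26b (edgeR adjusted p = 0.997 each), and 0 of 468 miRNAs passed it in edgeR or DESeq2 (0%, with 10 or 2.14% at an unadjusted p under 0.05). Without FD_CON 2 the interaction was -0.04 for miR-26a and -0.0017 for miR-26b.

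Set against control cows, supplemented cows had lower mean levels of both members on both diets, and none of the 4 differences passed. On grain, HG_PHY differed from HG_CON by -0.15 ± 0.16 for miR-26a (interval -0.49 to 0.18, edgeR adjusted p = 0.798) and by -0.07 ± 0.19 for miR-26b (interval -0.47 to 0.33, edgeR adjusted p = 0.935). All 4 HG_PHY libraries lay below the HG_CON mean for miR-26a, and 2 of 4 did for miR-26b. On forage, FD_PHY differed from FD_CON by -0.23 ± 0.16 for miR-26a (interval -0.57 to 0.10) and by -0.30 ± 0.19 for miR-26b (interval -0.70 to 0.10), with an edgeR adjusted p of 0.929 for each. All 4 FD_PHY libraries lay below the FD_CON mean for both members, a mean that FD_CON 2 raised. Without FD_CON 2 these differences were -0.07 ± 0.13 and -0.03 ± 0.12. The comparisons on grain and on forage involve different cows in the 2 arms and the same cows across diets. edgeR called 0 of 468 miRNAs on either diet (0%), with 32 (6.84%) on grain and 22 (4.70%) on forage at an unadjusted p under 0.05, while DESeq2 called 2 on grain and 1 on forage, neither member among them.

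**Figure D2:**
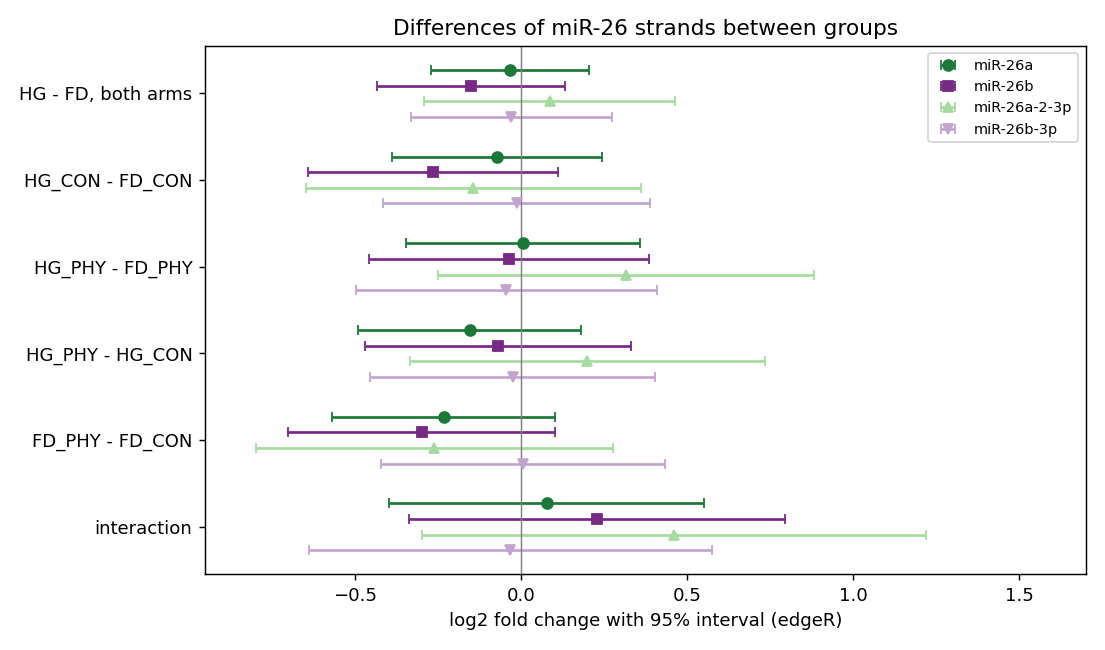
Log2 fold change with its 95% interval (x axis) of miR-26a, miR-26b and the passenger strands miR-26a-2-3p and miR-26b-3p in each comparison (y axis; the group named first minus the one named second), from edgeR on 18 libraries. Every interval includes 0, and those of the passenger strand miR-26a-2-3p are the widest of the 4 in each comparison.

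The ratio of miR-26a to miR-26b within a library does not depend on how libraries are scaled against each other. From raw reads it was 5.00, 4.78, 4.34 and 4.91 in HG_PHY 1 to 4. It was 5.16, 5.20, 5.63, 4.52 and 4.63 in HG_CON 1 to 5. FD_PHY 1 to 4 had 4.42, 4.90, 4.71 and 4.41, and FD_CON 1 to 5 had 4.72, 3.74, 4.96, 4.95 and 4.22. The lowest ratio was that of FD_CON 2, where both members were high and miR-26b more so. The Wilson 95% interval of a ratio spanned at most 1.91% of its value, which covers counting error only, since reads without molecular identifiers are not independent molecules.

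By group the ratio averaged 4.76 ± 0.29 in HG_PHY, 5.03 ± 0.45 in HG_CON, 4.61 ± 0.24 in FD_PHY and 4.52 ± 0.53 in FD_CON (SD, n = 4, 5, 4 and 5). The mean of FD_CON was 4.71 ± 0.35 without FD_CON 2 (n = 4). On the log2 scale, the difference between grain and forage averaged over the arms was 0.10, and 7 of 9 grain libraries lay above the forage mean. Its two-sided exact permutation p, with diet labels exchanged within arms, was 0.0914 (0.357 adjusted over the 5 comparisons made of the ratio). Permutations of diet labels treat the libraries as independent, although the 9 cows were sampled on both diets. In control cows the difference between HG_CON and FD_CON was 0.16 (exact permutation p = 0.143, adjusted 0.357), with 5 of 5 HG_CON libraries above the FD_CON mean and 3 of 5 above every FD_CON library. Without FD_CON 2 that difference was 0.09 (exact permutation p = 0.286) and the averaged one 0.07 (exact permutation p = 0.180). That library lowered the FD_CON mean used in the count of 5 of 5. HG_CON 4 and 5 (log2 ratios of 2.18 and 2.21) lay below the FD_CON mean without it (2.23). In supplemented cows the difference was 0.04 (exact permutation p = 0.486, adjusted 0.607). HG_PHY and HG_CON differed by -0.08 (exact permutation p = 0.349, adjusted 0.582), and FD_PHY and FD_CON by 0.04 (exact permutation p = 0.794 before and after adjustment). Without FD_CON 2 the difference between FD_PHY and FD_CON turned to -0.03 (exact permutation p = 0.600). The smallest p these designs allow is 0.0286 in supplemented cows, 0.0159 between the arms and 0.00794 in control cows, so each could have passed before adjustment, and none did.

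How the authors split reads changes the size of the ratio. In their adjusted counts, reads are divided over the names and places they fit. The adjusted count was 0.2508 to 0.2511 of the raw count for miR-26a in the 18 libraries and 0.4998 to 0.4999 for miR-26b. The bovine and the human entry of miR-26a held the same count in every library, and those of miR-26b differed by 16 reads of 1770217 in all. An even split over a pair of names would give the share of miR-26b, and a further even split over a pair of places that of miR-26a. In adjusted counts the ratio averaged 2.38 ± 0.21, against 4.73 ± 0.43 in raw reads (SD, n = 18 each). miR-26a then averaged 18819 CPM and stood 9th among 447 miRNAs tested, and miR-26b averaged 8024 CPM and stood 23rd. Ranked by the ratio, the 18 libraries had the same order in both kinds of count.

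**Figure D3:**
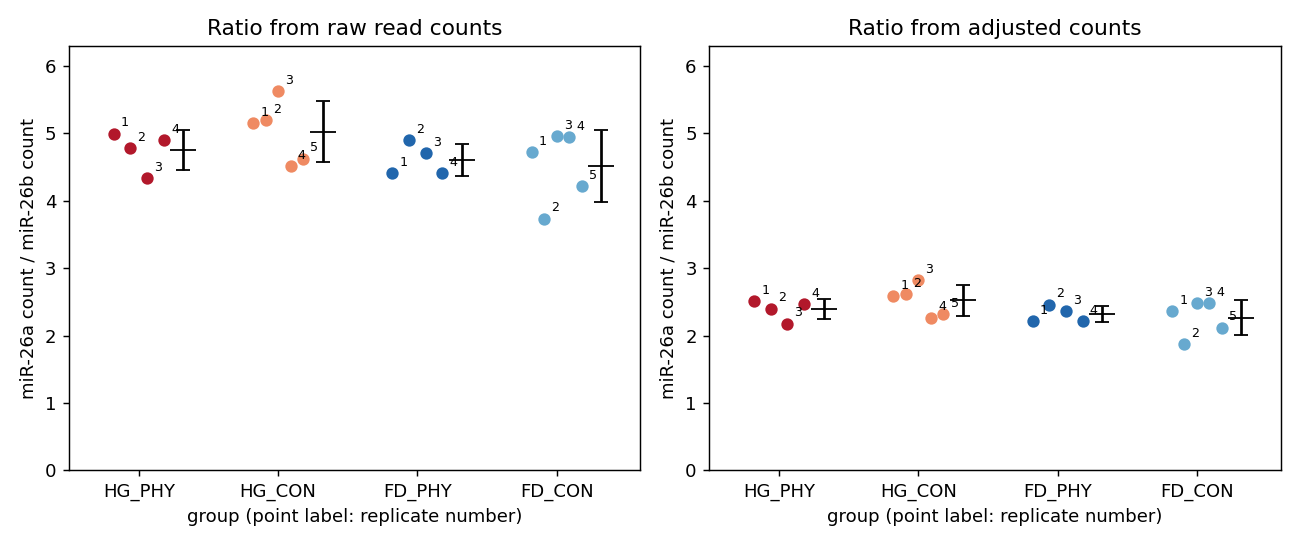
Ratio of miR-26a to miR-26b counts (y axis, no unit) per library and group (x axis) from raw reads (left) and from the authors' adjusted counts (right); points are libraries with their replicate number, bars the mean ± SD. The mean over 18 libraries is 4.73 on the left and 2.38 on the right, and FD_CON 2 is the lowest library in both.

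For its abundance, the spread of miR-26a between libraries was near the middle and that of miR-26b above it. Over 18 libraries the SD of log2 CPM was 0.24 for miR-26a and 0.30 for miR-26b, against a median of 0.41 over the 468 miRNAs tested and of 0.23 over the 50 most abundant. Ranked from the steadiest, miR-26a was 27th and miR-26b 37th of those 50, and the SDs within groups gave ranks of 34 and 40. The steadiest of the 50 were miR-103 (SD 0.088), miR-186 (0.11) and miR-151-5p (0.12), named here after their values were seen. The highest library was 2.06 times the lowest for miR-26a and 2.49 times for miR-26b.

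The spread was smaller without 1 library. Without FD_CON 2 the SD of log2 CPM was 0.18 for miR-26a and 0.16 for miR-26b, and their ranks among the 50 were 14 and 8. The highest of the 17 remaining libraries was then 1.62 times the lowest for miR-26a and 1.40 times for miR-26b. FD_CON 2 stood out less for miR-26a when no scaling factor was used. As a share of miRNA reads, miR-26a was at 6.07% in FD_CON 2 (Wilson 95% interval 6.06 to 6.09), against 5.97% in HG_CON 2 and in HG_CON 3. miR-26b was at 1.63% in FD_CON 2 (Wilson 95% interval 1.62 to 1.63) and at most 1.15% elsewhere. By total counts alone the SDs over 18 libraries were 0.21 and 0.23.

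**Figure D4:**
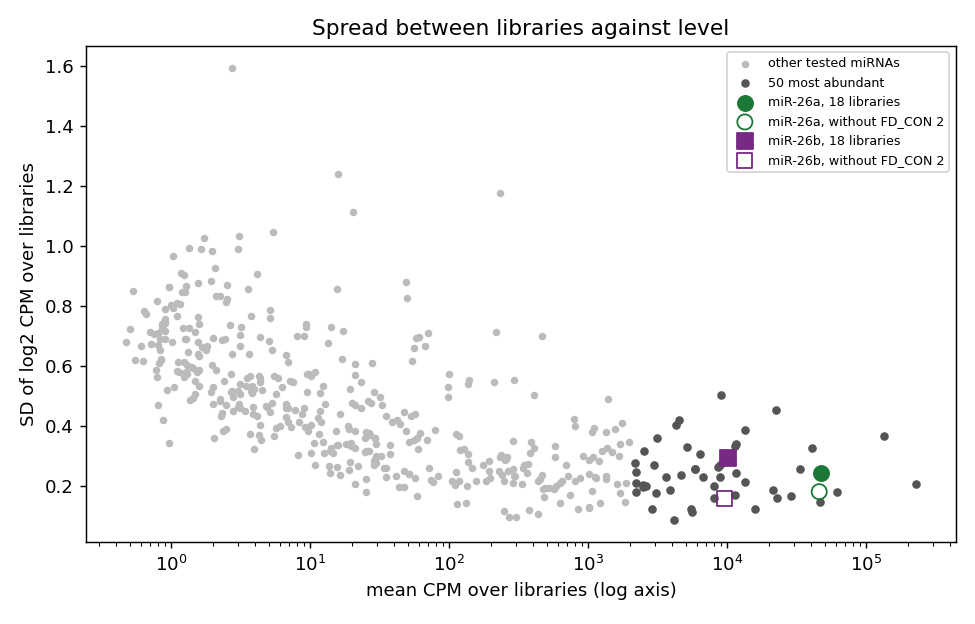
SD of log2 CPM over libraries (y axis) against mean CPM (x axis, log scale) for the 468 miRNAs tested, with the 50 most abundant in dark grey; filled symbols mark miR-26a and miR-26b over 18 libraries, open symbols without FD_CON 2. The SD of miR-26b is 0.30 with that library and 0.16 without it.

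Libraries with more miR-26a also had more miR-26b. Pearson's r of their log2 CPM was 0.90 and Spearman's rho 0.91 over 18 libraries (permutation p = 1e-05 each, the smallest that 100000 resamples can give; 1 relation was tested). Without FD_CON 2 and HG_CON 2, the libraries farthest from the median of miR-26a, r was 0.77. The deviations from the group means had an r of 0.91. Both levels of a library share its scaling factor and its depth. The permutation also treats the 18 libraries as independent, although they come from 9 cows sampled on both diets.

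**Figure D5:**
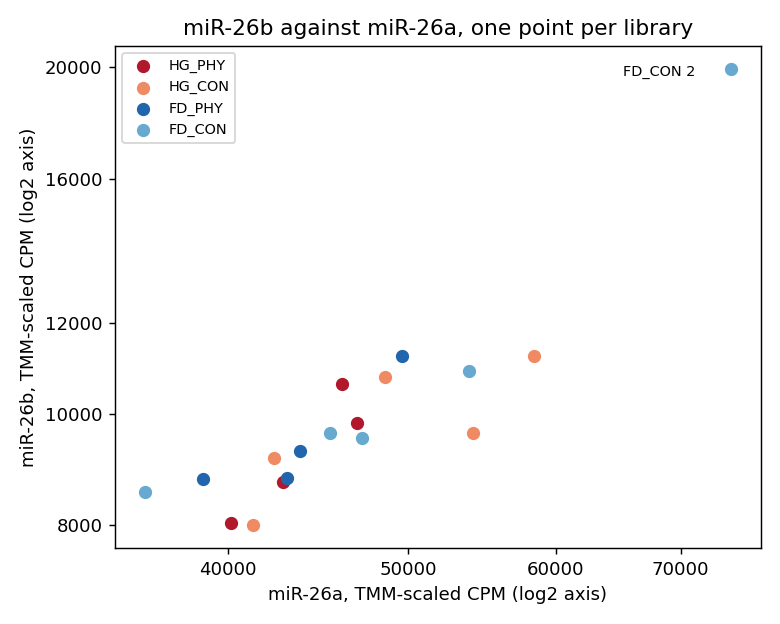
miR-26b against miR-26a in TMM-scaled CPM, both on log2 axes, with 1 point per library coloured by group. The 18 points rise together (Pearson's r 0.90), and FD_CON 2 lies far above the other 17.

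The miRNAs whose log2 CPM followed miR-26a most closely over the 18 libraries were miR-374b (r = 0.92, rho = 0.88), miR-26b, miR-99a-5p (r = 0.87, rho = 0.85), hsa-miR-145-3p (r = 0.83, rho = 0.69) and hsa-miR-30c-2-3p (r = 0.78, rho = 0.68). Names with hsa are human entries. Those most like miR-26b were miR-26a, hsa-miR-145-3p (r = 0.89, rho = 0.68), miR-374b (r = 0.88, rho = 0.79), miR-30b-5p (r = 0.86, rho = 0.58) and hsa-miR-224-5p (r = 0.82, rho = 0.58). The median r over all other miRNAs tested was 0.03 for miR-26a and 0.06 for miR-26b. Without the 2 libraries farthest from the member's median, FD_CON 2 and HG_CON 2 for miR-26a and FD_CON 2 and HG_CON 1 for miR-26b, miR-374b kept an r of 0.78 with miR-26a and 0.75 with miR-26b and miR-99a-5p 0.80 with miR-26a, whereas miR-30b-5p had 0.45 with miR-26b. Without those libraries hsa-miR-145-3p had 0.65 with miR-26a and 0.64 with miR-26b. hsa-miR-30c-2-3p had 0.62 with miR-26a, and hsa-miR-224-5p 0.57 with miR-26b. All of these names were picked for their likeness, so no p is given.

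The passenger strands, which are cut from the same hairpins and mostly discarded, were listed under human names. hsa-miR-26a-2-3p lies at 55977974 to 55977995 on chromosome 5 and averaged 24.6 ± 7.16 CPM, and hsa-miR-26b-3p lies at 107133443 to 107133463 on chromosome 2 and averaged 16.3 ± 2.88 CPM (SD, n = 18 each). The raw reads behind them ran from 125 to 541 and from 95 to 266 per library. There were 1999 ± 371 reads of miR-26a per read of miR-26a-2-3p, a value that also counts miR-26a from chromosome 22, and 630.3 ± 128 reads of miR-26b per read of miR-26b-3p. The lowest value for miR-26a was that of HG_PHY 1 (1016), which had 39.5 CPM of the passenger strand.

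Neither passenger strand passed in any comparison. On grain against forage over both arms, miR-26a-2-3p had a log2 fold change of 0.09 ± 0.18 and miR-26b-3p of -0.03 ± 0.15 (edgeR adjusted p = 0.907 and 0.949). The largest difference was the 0.32 ± 0.27 of miR-26a-2-3p between HG_PHY and FD_PHY, with an interval from -0.25 to 0.88 (edgeR adjusted p = 0.893), apart from its interaction term of 0.46 ± 0.36 (edgeR adjusted p = 0.997).

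The files also give the number of distinct read sequences behind each name, which grows with depth. miR-26a was read as 396 to 727 distinct sequences and miR-26b as 158 to 376. FD_CON 2, with the most miRNA reads, had the most of both, and HG_CON 1, with the fewest miRNA reads, the fewest. The ratio of the counts was 2.39 ± 0.16 over 18 libraries (SD), with its lowest value, 1.93, in FD_CON 2.

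Other miRNAs known to restrain growth did not pass either. The list held the let-7 family, the miR-15, miR-16, miR-195 and miR-497 group, and the miR-34 and miR-449 family, and 18 of its 19 entries were tested (miR-34b was read in 4 of 18 libraries). On grain against forage, 8 were above 0 and 10 below, with a median log2 change of -0.01, the same as over all 468 miRNAs (-0.01, 50.9% below 0), and 0 passed. Closest to passing were miR-195 (-0.28 ± 0.11, edgeR adjusted p = 0.317), miR-98 (0.19 ± 0.09, 0.465), miR-497 (-0.21 ± 0.12, 0.528) and let-7c (-0.26 ± 0.16, 0.550). Of 12 miRNAs known to promote growth, from the miR-17 clusters with miR-21-5p, miR-221 and miR-222, 6 were above 0 and 6 below, with a median of 0.01, and 0 passed. Scaled by total counts alone, 33.1% of all miRNAs were below 0 instead of 50.9%. The lowest adjusted p-values of growth-promoting miRNAs were those of hsa-miR-93-5p (0.28 ± 0.08) and miR-25 (0.30 ± 0.09), at 0.165 each, followed by miR-19b (-0.18 ± 0.09, 0.468) and miR-92a (0.27 ± 0.14, 0.491).

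In the other comparisons these lists also held 0 miRNAs past the threshold. Between HG_CON and FD_CON, 4 growth-restraining miRNAs were above 0 and 14 below (median -0.14), and 5 growth-promoting ones were above 0 and 7 below (median -0.05). Over all miRNAs tested the median there was -0.02, with 53.8% below 0. Between HG_PHY and FD_PHY, 10 growth-restraining miRNAs were above 0 and 8 below (median 0.13), and 8 growth-promoting ones were above 0 and 4 below (median 0.13). The median over all was 0.01, with 49.4% below 0. Between HG_PHY and HG_CON the counts were 10 and 8 for the growth-restraining list (median 0.12) and 9 and 3 for the growth-promoting list (median 0.10), against a median of 0.0004 and 49.8% below 0 over all. Between FD_PHY and FD_CON they were 1 and 17 (median -0.17) and 5 and 7 (median -0.07), against a median of -0.04 and 55.6% below 0 over all. No test was run on these counts, and entries of 1 family need not vary independently. Without FD_CON 2, and again with 0 past the threshold, the growth-restraining list had 6 above 0 and 12 below on grain against forage (median -0.05), 2 and 16 between HG_CON and FD_CON (median -0.22) and 2 and 16 between FD_PHY and FD_CON (median -0.19). The growth-promoting list then had 6 and 6 (median -0.01), 4 and 8 (median -0.08) and 3 and 9 (median -0.06) in the same 3 comparisons. Over all miRNAs tested without FD_CON 2, the medians of these 3 comparisons were 0.01, -0.04 and -0.02.

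Of the lists of other cell types, the 4 muscle miRNAs tested (of 5) were all below 0 on grain, with a median log2 change of -0.38, led by miR-143 (-0.51 ± 0.12) and miR-145 (-0.46 ± 0.15). The 6 leukocyte miRNAs had 2 above 0 and 4 below (median -0.18), with miR-146a at -0.53 ± 0.13 and miR-223 at 0.48 ± 0.20. The 4 fibroblast and the 2 endothelial miRNAs were below 0 (medians -0.20 and -0.23), the 3 erythroid miRNAs above 0 (median 0.20), and the 6 epithelial miRNAs were split 4 to 2 (median 0.04). None of these passed in edgeR over all 18 libraries, and those named had adjusted p-values of 0.110 (miR-143), 0.221 (miR-145), 0.110 (miR-146a) and 0.330 (miR-223). Without FD_CON 2, miR-143 fell by 0.41 on the log2 scale on grain and passed (edgeR adjusted p = 0.00898), while 0 of the other miRNAs on these lists did. That library was set apart partly by its muscle sum, which is mostly miR-143, so this pass is not independent of leaving it out. The fit without FD_CON 2 tested 467 miRNAs, and fits with 1 library left out called 0 to 3 in all. Without FD_CON 2 the muscle median was -0.23 and the erythroid median 0.12. Over all 18 libraries the changes of miR-26a and miR-26b were -0.03 and -0.15, against a median of -0.01 over all miRNAs tested. Without FD_CON 2 they were 0.03 and -0.03, against 0.01. Whether the cell makeup of the papillae has a part in the changes of the members was not tested.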

How the data were processed

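Per the file headers, the authors deposited for each library a raw read count per mature miRNA name, an expected count in which reads are split over the names and places they map to (the adjusted count), and RPM of all reads. Per the submitters' processing notes, bcl2fastq 2.20 and DESeq2 were used; no aligner, counting program or build is named there or in the labels. RPM, per the file headers, are scaled to all reads and served only to find read totals. RNA came from the NucleoSpin miRNA kit and libraries from the NETflex kit, per the labels. The deposited table of normalized values was not used here.

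Names that overlap by at least 15 nt, or bovine and human entries of 1 miRNA with totals within 5%, were merged (966 names, 824 miRNAs), and the name with the most reads was used. Raw counts of all miRNAs were fitted with edgeR 4.0.16 in R 4.3.3: TMM, filterByExpr (468 miRNAs kept), the quasi-likelihood test, a mean for each of 4 groups, 18 libraries, no term for the cow, Benjamini-Hochberg adjustment, threshold 0.05, two-sided. P-values thus treat libraries of 9 cows as independent. An SE is the log2 fold change over the root of its F statistic. Ratios were tested by exact permutation over libraries. The fit was tested on simulated data. Replicate pairs differed by a chi-square of 111 to 2602 per degree of freedom (32 pairs within groups), so none of these was a copy of the other; pairs between groups were not compared. Alternatives were other scaling, no filter, adjusted counts (rounded), DESeq2 1.42.0, a replicate block and leaving out each library. For diet the block was the replicate number within the arm. For PHY against CON it was the number shared between the arms, which joins different cows. Named miRNAs were the members, other miR-26 entries, the 5 most alike, the 2 neighbours on each side in level, and up to 4 of each list with the lowest p (growth-restraining, growth-promoting, and markers of epithelium, muscle, leukocytes, erythroid cells, endothelium and fibroblasts). Members and lists were chosen with earlier results of these data known.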

Additional observations from a re-analysis of the deposited data

Results flagged for a closer look

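Within FD_CON, the miR-26b level of FD_CON 2 (19942 CPM, the nearest library being at 10888 CPM) and its level of the passenger strand miR-26a-2-3p (43.6 CPM, the nearest at 24.7 CPM) lay far from the other 4 libraries. The gap took up 0.795 and 0.747 of the group's range, above Dixon's 95% critical value of 0.710. These were 2 of 20 sets looked at, and chance gives about 1 in 20. The miR-26a level and the ratio of FD_CON 2 did not pass that limit.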

How the results depend on the processing

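Neither member passed in any of the 288 alternative values of its log2 fold changes, and the sign changed in 22. The lowest edgeR adjusted p, 0.414, was that of miR-26a between HG_PHY and HG_CON with the block shared between the arms. By total counts alone miR-26a had 0.078 on grain against forage, 0.14 in control cows and -0.11 for the interaction; between HG_PHY and FD_PHY it had -0.00039 with DESeq2 size factors or in DESeq2 and -0.0095 with no filter. Total counts moved the median of all miRNAs to 0.17 in control cows, 0.12 for FD_PHY against FD_CON and -0.14 for the interaction. Leaving out 1 library at a time gave ranges for miR-26a of -0.085 to 0.032 (diet), -0.17 to 0.054 (control cows), -0.057 to 0.066 (supplemented cows) and -0.044 to 0.18 (interaction), and for miR-26b of -0.090 to 0.049 (supplemented cows), -0.13 to 0.011 (HG_PHY against HG_CON) and -0.0017 to 0.32 (interaction). The ratio difference between FD_PHY and FD_CON ran from -0.029 (without FD_CON 2) to 0.073.

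The number of miRNAs called on grain against forage was 1, but 2 by total counts, 3 with no filter, 0 with adjusted counts, 12 in DESeq2, 4 with the block within the arm, and 0 to 3 with 1 library left out. HG_PHY against HG_CON gave 0, but 2 in DESeq2, 1 with the block shared between the arms and 0 to 2 with 1 library left out. FD_PHY against FD_CON gave 0, but 1 with no filter, in DESeq2 and with the shared block, and 0 to 1 with 1 library left out. The mean of miR-26a was 18819 CPM in adjusted counts, and without FD_CON 2 the SD of log2 CPM of miR-26b was 0.16; these settings for level and spread, and the lists without FD_CON 2, were chosen after seeing the data.

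Same-numbered libraries had correlations of -0.05 to 0.38 between diets (3 of 9 over 0.1) and -0.17 to 0.21 between arms, so numbers were not taken as pairs. With the replicate block within the arm, miR-26a had -0.02 ± 0.07 and miR-26b -0.12 ± 0.10 on grain. No call of a member changed with either block.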
